A study of Mus musculus with 15 samples.

Results

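The genes described here lead from glucose uptake to lactate: the glucose transporter Slc2a1, the glycolytic enzymes Hk2, Gpi1, Pfkl, Aldoa, Tpi1, Pgk1 and Pkm, the lactate dehydrogenase subunit Ldha, and Pdk1, a kinase that acts on pyruvate dehydrogenase. They are steps of one pathway, taken by symbol with earlier results of these data known, and every probe set that the platform annotation gave to 1 of the 10 symbols was taken. Of the 10 genes, 9 had a probe set, 24 probe sets in all out of 45101 on the array, and no probe set carried the name Gpi1 alone. Slc2a1 had 3 probe sets, Hk2 1, Pfkl 3, Aldoa 5, Tpi1 3, Pgk1 3, Pkm 1, Ldha 1 and Pdk1 4. A gene was counted by its brightest probe set, the one with the highest mean over all arrays.

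Expression was measured on Affymetrix arrays in NIH3T3, an immortalised line of mouse embryo fibroblasts, after retroviral transduction with pBabe-puro, which gives resistance to puromycin. The 15 arrays formed 8 groups. The empty vector was profiled after ethanol (2 arrays, called vector) and after 4-hydroxytamoxifen, 4-OHT, in ethanol (2 arrays, vector 4-OHT). RUNX1-ER, a fusion of RUNX1 to the ligand-binding part of the oestrogen receptor that 4-OHT switches on, was profiled without 4-OHT (uninduced, 2 arrays) and with it (induced, 2 arrays). Constitutive lines carried mouse Runx1, Runx2 or Runx3 (2 arrays each) or human RUNX1 (1 array). All cultures stood for 7 days to reach confluence and then had 0.2% ethanol, with or without 4-OHT at 0.1 mM as the labels give it, for 24 h, so every array is of a dense culture. The labels do not say which of these treatments the constitutive lines had. Titles number the arrays of a group as biological replicates 1 and 2. No label ties the 2 to different cultures or infections, so the spread behind every p-value may be technical, and the small number of arrays limits the precision.

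Slc2a1 encodes GLUT1, the basal glucose carrier of fibroblasts. Hexokinase traps the sugar as glucose 6-phosphate, phosphofructokinase commits it to glycolysis, aldolase and triose phosphate isomerase split and interconvert the sugar phosphates, and phosphoglycerate kinase and pyruvate kinase return ATP. Lactate dehydrogenase turns pyruvate into lactate and restores NAD+, while Pdk1 phosphorylates and inhibits pyruvate dehydrogenase and so limits the entry of pyruvate into the mitochondrial cycle. Most of these genes are textbook targets of the hypoxia-inducible factor HIF, which binds a hypoxia response element with the core letters ACGTG or GCGTG. Runx proteins are transcription factors that bind DNA with the core letters TGTGGT or TGCGGT, as a complex with Cbfb.

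Promoter sequences are printed for 5 of the genes, the 3 with the largest differences (Slc2a1, Hk2 and Pdk1) and 2 enzymes with smaller ones (Pgk1 and Ldha), because both kinds of core occur among them. Each is the 250 bases before a RefSeq transcription start (GRCm38.p6), in the direction of transcription. Hypoxia response element cores and Runx cores of either strand that lie wholly within it are in capitals. A hypoxia core of Pdk1 at position −2 runs past the end of the printed stretch and is not marked. Pdk1 and Ldha have 2 windows each, of which 1 is printed. The other Pdk1 window held no core of either kind, and the other Ldha window held hypoxia cores. The windows lie at chr4:119108495-119108744 (Slc2a1, plus strand), chr6:82774455-82774704 (Hk2, minus strand), chr2:71872974-71873223 (Pdk1, plus strand), chrX:106186850-106187099 (Pgk1, plus strand) and chr7:46845554-46845803 (Ldha, plus strand, inside the annotated gene and before a later start).
Slc2a1: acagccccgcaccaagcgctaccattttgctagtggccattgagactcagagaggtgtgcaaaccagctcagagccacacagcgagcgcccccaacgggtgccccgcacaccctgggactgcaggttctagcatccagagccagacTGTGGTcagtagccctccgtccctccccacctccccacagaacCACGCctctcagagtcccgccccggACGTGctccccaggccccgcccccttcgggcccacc
Hk2: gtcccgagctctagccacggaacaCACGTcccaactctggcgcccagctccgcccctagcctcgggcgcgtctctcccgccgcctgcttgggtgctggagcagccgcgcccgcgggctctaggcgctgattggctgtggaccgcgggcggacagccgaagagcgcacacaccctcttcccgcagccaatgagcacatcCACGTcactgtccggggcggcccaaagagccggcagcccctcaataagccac
Pdk1: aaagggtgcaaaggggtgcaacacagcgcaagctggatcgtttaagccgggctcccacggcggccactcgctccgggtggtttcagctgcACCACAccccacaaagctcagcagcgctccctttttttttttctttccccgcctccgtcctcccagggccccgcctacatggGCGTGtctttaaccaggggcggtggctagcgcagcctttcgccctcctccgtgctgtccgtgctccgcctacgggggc
Pgk1: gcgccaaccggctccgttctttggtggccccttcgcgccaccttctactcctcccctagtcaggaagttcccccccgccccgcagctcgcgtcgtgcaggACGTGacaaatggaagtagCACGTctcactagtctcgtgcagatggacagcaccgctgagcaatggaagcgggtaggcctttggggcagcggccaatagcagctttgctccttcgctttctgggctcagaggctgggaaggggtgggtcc
Ldha: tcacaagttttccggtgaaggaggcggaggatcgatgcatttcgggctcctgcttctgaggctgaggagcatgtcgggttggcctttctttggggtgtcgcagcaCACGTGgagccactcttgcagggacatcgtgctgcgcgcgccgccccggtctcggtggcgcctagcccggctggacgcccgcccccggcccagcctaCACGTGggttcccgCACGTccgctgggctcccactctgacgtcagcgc

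In these lines the Runx core reads TGTGGT or, from the other strand, ACCACA. The hypoxia core reads ACGTG or GCGTG and, from the other strand, begins with CACG. Where 2 such matches overlap, as in CACGTG, the core is present on both strands. The search also took in the 50 bases after each start, so windows of 300 bases. RefSeq held 15 windows for the 10 genes, at least 1 for each gene. The hypoxia core (ACGTG or GCGTG on either strand) was found in 10 of these 15 windows (66.7%) and in 14380 of 32851 windows of all genes (43.8%). Of the 10, 2 are overlapping Aldoa windows that hold the same match, so that site is counted 2 times. At least 1 window held it for 8 of the 9 genes with a probe set, all but Tpi1. The window of Gpi1, which had no probe set, did not hold it either. A gene with more windows has more chances of a match, and no share per gene was taken over all genes. The Runx core (TGTGGT or TGCGGT on either strand) was found in 3 of the 15 windows (20%), against 7362 of 32851 (22.4%). The 3 windows belonged to Slc2a1, at position −104 from the start, Pdk1, at −160, and Hk2, at +37, which lies beyond the printed stretch. A match of 5 or 6 letters is a description of the sequence and not a binding site, and the arrays measured no binding.

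The cells and arrays were checked before any comparison. Fibroblast markers read high on all 15 arrays, with a mean over 9 genes of 11.12 to 11.51 log2 units (Col1a2 had a median of 13.16 and Vim of 13.12), against array medians of 3.69 to 3.75. Of the other cell types, 4 endothelial markers had medians of 3.18 (Tek) to 3.61 (Kdr), 4 blood markers of 3.11 (Ptprc) to 4.50 (Cd3e) and 5 skeletal muscle markers of 3.14 (Myh1) to 4.68 (Acta1), with Myod1 at 3.37, Cd68 at 3.77 and Ckm at 4.45. The mean of 5 epithelial markers was 4.65 to 4.67 in Runx3 cells and 3.79 to 4.16 in the other groups, with Krt8 at up to 6.94. The Runx1 probe set read 9.11 and 9.30 in the Runx1 line and 4.45 to 4.88 elsewhere. Elsewhere takes in human RUNX1 (4.69), uninduced RUNX1-ER (4.67 and 4.88) and induced RUNX1-ER (4.63 and 4.71), against 4.56 and 4.75 with vector. The RUNX1 introduced in those lines is thus not seen by this probe set, and whether it covers that sequence is not known here. The Runx3 probe set read 3.96 to 4.46 in the Runx3 line and 4.10 to 4.54 elsewhere, and whether it covers the introduced sequence is not known here; no probe set carried the name Runx2 alone. RUNX1-ER uninduced 1, both vector 4-OHT arrays and Runx2 2 correlated more closely with an array of another group than with their own replicate. These values are log2 levels after RMA normalization, which forces all arrays to one distribution. Fewer cells and less RNA per cell therefore cannot be told apart, and a probe set's level is not set against that of another.

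Several of the 9 genes were lower than in vector cells with Runx3 and with Runx2, and after induction of RUNX1-ER than before it. With Runx3, 7 of the 9 genes passed the test as lower (limma, Benjamini-Hochberg adjusted p under 0.05 over 45037 probe sets), with Slc2a1 2.73-fold and Pdk1 2.15-fold lower and the 5 enzymes Pfkl, Aldoa, Tpi1, Pgk1 and Pkm 1.37-fold to 1.62-fold lower. Over all 18193 genes, 4.57% passed as lower in that comparison. With Runx2, 3 of 9 were lower (Slc2a1 2.31-fold, Hk2 2.34-fold and Pdk1 1.70-fold), against 1.35% of all genes. With Runx1 none of the 9 passed (0.610% of all genes were lower), 2 of 9 had an unadjusted p under 0.05 on the lower side against 4.75% of all genes, and 1 of the 24 probe sets passed. No gene of the 9 passed as higher in these 3 comparisons by limma, and none had an unadjusted p under 0.05 on that side. Over all genes, 3.26% passed as higher with Runx3, 0.775% with Runx2 and 0.813% with Runx1.

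**Figure D1:**
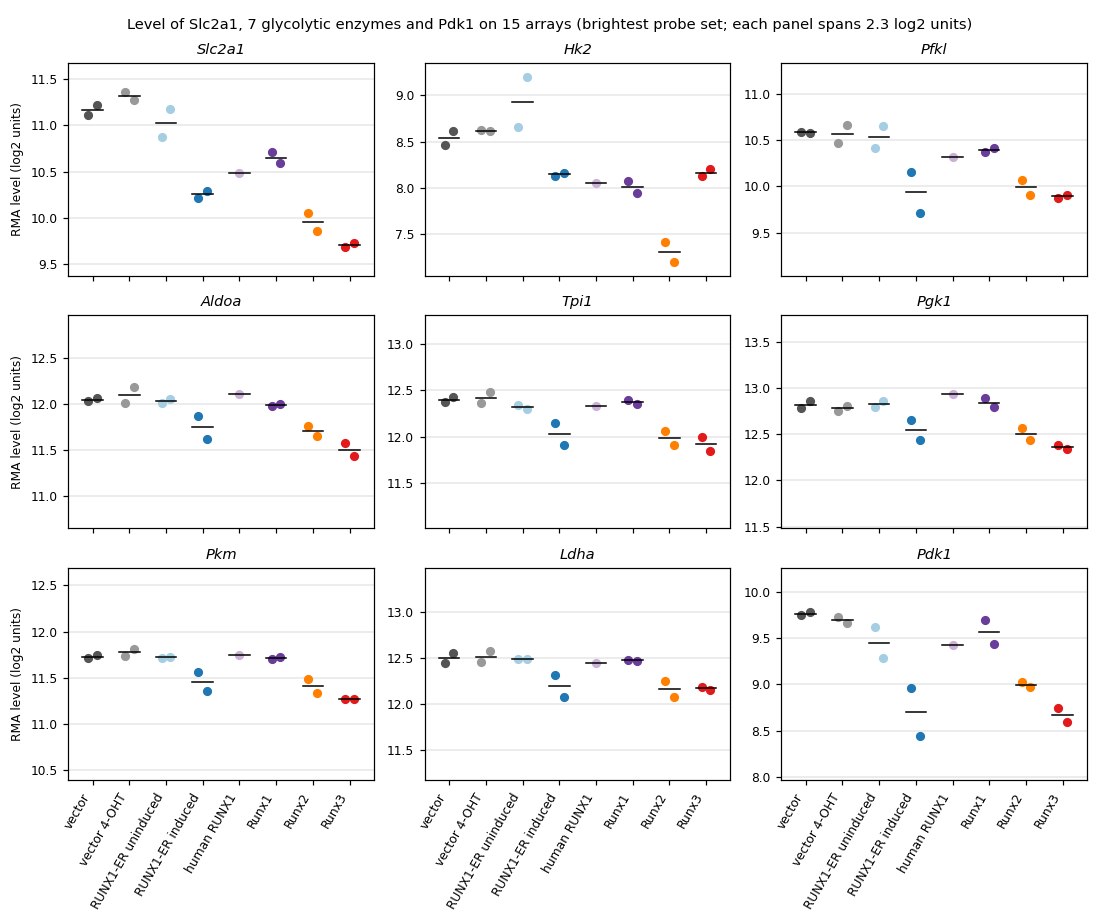
RMA levels in log2 units of the brightest probe set of 9 genes on 15 arrays, 1 point per array and a bar at the mean of each of the 8 groups; each panel spans 2.3 log2 units. Runx2, Runx3 and induced RUNX1-ER are the 3 lowest groups in 8 of the 9 panels, all but Hk2.

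Slc2a1 (chr4:119108745-119137330, GRCm38.p6) gave the clearest difference. Its level was 11.11 and 11.22 on the vector arrays and 11.36 and 11.28 with 4-OHT. It was 10.71 and 10.59 with Runx1, 10.05 and 9.86 with Runx2, 9.69 and 9.73 with Runx3, and 10.49 with human RUNX1. The RUNX1-ER line read 10.88 and 11.18 uninduced and 10.22 and 10.29 induced. Every array with a constitutive Runx gene or induced RUNX1-ER read below every control array, and uninduced RUNX1-ER overlapped with vector. The log2 difference from vector was −1.21 ± 0.11 (SE, 2 arrays against 2) with Runx2 (limma adjusted p = 6.51e-05) and −1.45 ± 0.11 with Runx3 (adjusted p = 3.05e-06). With Runx1 it was −0.51 ± 0.11 and did not pass (adjusted p = 0.0565), while another Slc2a1 probe set passed as lower, at −0.57 with an adjusted p of 0.0397, and the remaining one differed by −0.51 (adjusted p = 0.161). The 3 probe sets correlated at r = 0.99 to 1.00 over the 15 arrays.

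Ordered by level, Slc2a1 ran from vector 4-OHT (mean 11.32 ± 0.06 SD) through vector (11.16 ± 0.08), uninduced RUNX1-ER (11.03 ± 0.22), Runx1 (10.65 ± 0.08), human RUNX1 (10.49, 1 array), induced RUNX1-ER (10.26 ± 0.05) and Runx2 (9.95 ± 0.13) to Runx3 (9.71 ± 0.03). Of the 7 steps between neighbours, 2 had a 95% interval that left out 0, the step of 0.38 from uninduced RUNX1-ER to Runx1 and that of 0.30 from induced RUNX1-ER to Runx2. Here and for the genes below, neighbours were found by sorting these same means and the intervals were not adjusted, so the steps are a description. For the other 5 steps the interval included 0. For the step from Runx2 to Runx3 it ran from 0.00 to 0.49, and the arrays of those 2 groups did not overlap.

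Hk2 (chr6:82725025-82774454), the inducible hexokinase isoform of muscle, fat and growing cells, followed another order. It read 8.46 and 8.61 with vector, 8.63 and 8.61 with vector 4-OHT, 8.66 and 9.20 in uninduced RUNX1-ER, and 8.13 and 8.16 after induction. With Runx1 it read 8.07 and 7.94, with Runx2 7.41 and 7.20, with Runx3 8.13 and 8.20, and with human RUNX1 8.05. Runx2 alone stood apart at the low end, and the 2 uninduced RUNX1-ER arrays lay farther apart than those of any other group. The log2 difference from vector was −1.23 ± 0.15 with Runx2 (adjusted p = 4.70e-04), −0.53 ± 0.15 with Runx1 (adjusted p = 0.175), −0.48 with human RUNX1 (adjusted p = 0.164) and −0.37 ± 0.15 with Runx3 (adjusted p = 0.225). Runx3 cells read 1.81-fold above Runx2 cells (log2 difference 0.86 ± 0.15, adjusted p = 0.00782), and Hk2 was 1 of 9 genes, against 1.30% of all genes, to pass as higher in that comparison. That call was lost without Runx2 2 (0.75, adjusted p = 0.0666) or Runx3 2 (0.82, adjusted p = 0.0811). From high to low, 2 of the 7 steps excluded 0, that from vector to Runx3 (0.37) and that from Runx1 to Runx2 (0.70).

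Pfkl (chr10:77986947-78009807), the liver-type subunit of phosphofructokinase, read 10.59 and 10.58 with vector, 10.07 and 9.91 with Runx2, and 9.88 and 9.91 with Runx3. It read 10.37 and 10.42 with Runx1, so the Runx2 and Runx3 arrays lay lowest among the constitutive lines. The difference was −0.69 ± 0.14 with Runx3 (adjusted p = 0.00781) and −0.60 ± 0.14 with Runx2 (adjusted p = 0.0529). A second Pfkl probe set gave −0.51 with Runx3 (adjusted p = 0.0686), and the remaining one read near the low end of the arrays (mean 3.28) and differed by 0.01. Averaging the 3 probe sets put Pfkl at −0.40 with Runx3 (adjusted p = 0.0986).

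Aldoa, Tpi1, Pgk1 and Pkm, which act below phosphofructokinase, shared 1 pattern. Aldoa (chr7:126795234-126800994), the muscle-type aldolase that fibroblasts also use, read 12.03 and 12.06 with vector, a mean of 11.99 ± 0.01 (SD) with Runx1, 11.76 and 11.65 with Runx2 and 11.57 and 11.43 with Runx3. Tpi1 (chr6:124810586-124814158), triose phosphate isomerase, read 12.37 and 12.43 with vector, 12.39 and 12.35 with Runx1, 12.06 and 11.91 with Runx2 and 11.99 and 11.84 with Runx3. The Runx1 arrays of both genes lay within 0.1 log2 units of the vector arrays, and all 4 Runx2 and Runx3 arrays lay below. Pgk1 (chrX:106187100-106203699), the first enzyme of the pathway to return ATP, read 12.78 and 12.86 with vector, 12.89 and 12.79 with Runx1, 12.57 and 12.44 with Runx2 and 12.38 and 12.34 with Runx3. Pkm (chr9:59656576-59679372), pyruvate kinase of muscle and most growing cells, read 11.71 and 11.75 with vector, 11.70 and 11.72 with Runx1, 11.49 and 11.34 with Runx2 and 11.27 and 11.27 with Runx3. Its 1 probe set does not tell the M1 and M2 splice forms apart here.

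With Runx3 the differences from vector were −0.55 ± 0.11 for Aldoa (limma adjusted p = 0.00667), −0.48 ± 0.11 for Tpi1 (adjusted p = 0.0154), −0.46 ± 0.10 for Pgk1 (adjusted p = 0.0139) and −0.46 ± 0.10 for Pkm (adjusted p = 0.0111). With Runx2 they were −0.34, −0.41, −0.31 and −0.32 in the same order, with adjusted p from 0.0945 to 0.217, and with Runx1 from −0.06 to 0.02. Other probe sets of Aldoa, Tpi1 and Pgk1 moved with the brightest, at r = 0.80 to 0.98 within a gene, and with Runx3 the 5 Aldoa probe sets gave −0.29 to −0.66. All 3 genes have probe sets with the suffix _x_at, and all 5 probe sets of Aldoa carry it. The suffix marks probes that can also bind related transcripts, so the signal of those probe sets may not come from 1 gene. Agreement among the 5 Aldoa probe sets therefore does not show that their signal is of Aldoa alone.

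Ldha (chr7:46842274-46855627), which makes the subunit of lactate dehydrogenase that favours lactate, read 12.44 and 12.55 with vector, 12.48 and 12.47 with Runx1, 12.25 and 12.08 with Runx2 and 12.19 and 12.15 with Runx3. The groups with Runx2 and Runx3 did not overlap with vector, but the difference was −0.33 ± 0.10 in each, with an adjusted p of 0.215 for Runx2 and 0.108 for Runx3. The 95% interval of Runx1 against vector for Ldha was −0.24 to 0.20.

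Pdk1 (chr2:71873215-71903858) read 9.75 and 9.78 with vector, 9.73 and 9.66 with vector 4-OHT, 9.70 and 9.44 with Runx1, 9.02 and 8.97 with Runx2, 8.74 and 8.59 with Runx3 and 9.43 with human RUNX1. In the inducible line it read 9.62 and 9.28 uninduced and 8.96 and 8.44 induced. Runx2, Runx3 and induced arrays all read below every other array. The difference from vector was −1.10 ± 0.16 with Runx3 (adjusted p = 7.03e-04), −0.77 ± 0.16 with Runx2 (adjusted p = 0.0280) and −0.19 ± 0.16 with Runx1 (adjusted p = 0.922). The Runx2 call was lost when any of vector 1, vector 2, Runx2 1 or Runx2 2 was left out (−0.79 to −0.74, adjusted p = 0.103 to 0.192). With Runx3, 2 further Pdk1 probe sets gave −0.93 and −1.33, while the last, near the low end of the arrays (mean 3.26), gave −0.21. In the order of levels (vector 9.77, vector 4-OHT 9.69, Runx1 9.57, uninduced 9.45, human RUNX1 9.43, then Runx2, induced 8.70, Runx3 8.66) 1 of 7 steps left out 0, that from human RUNX1 to Runx2.

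**Figure D2:**
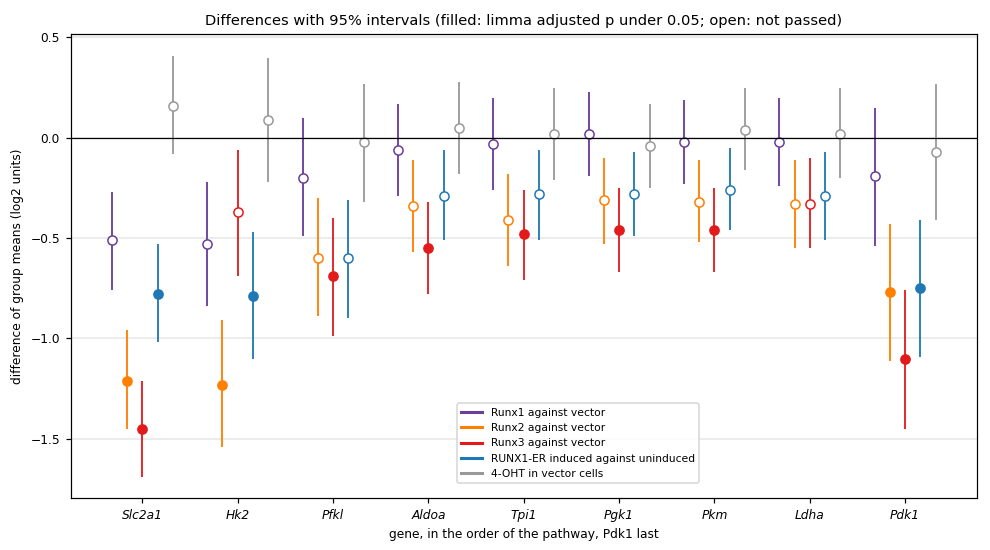
Log2 differences of group means for 9 genes in 5 comparisons, with 95% intervals from limma; filled points passed an adjusted p of 0.05 and open points did not. Runx3 points are filled for 7 genes, Runx2 and induction points for 3 each, and no point of Runx1 or of 4-OHT in vector cells is filled.

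Over the 9 genes the median log2 difference from vector was −0.48 with Runx3, −0.41 with Runx2 and −0.06 with Runx1, while the median over all 18193 genes was 0.00, −0.01 and −0.01. All 9 had an unadjusted p under 0.05 on the lower side with Runx3 (10.2% of all genes did) and with Runx2 (7.46%). The 2 arrays of the line lay below both vector arrays for 9 of 9 genes with Runx3 (24.5% of all genes), for 9 of 9 with Runx2 (23.2%) and for 5 of 9 with Runx1 (21.1%). Of the 24 probe sets, 17 passed as lower with Runx3 (3.07% of all probe sets), 7 with Runx2 (0.879%) and 1 with Runx1 (0.389%). The 3 lines were set against the same 2 vector arrays, so these counts are not independent of each other.

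The count of 7 with Runx3 rested on all 4 arrays. It was 2 without vector 1, without vector 2 or without Runx3 2, and 4 without Runx3 1, and Slc2a1 and Pdk1 passed in each of these fits. For Pfkl, Aldoa, Tpi1, Pgk1 and Pkm the adjusted p rose to between 0.0505 and 0.157 where the call was lost, and the differences stayed between −0.71 and −0.41. The count of 3 with Runx2 was 2 without any 1 of the 4 arrays, with Slc2a1 and Hk2 passing each time, but it was 9 when the variance was given an intensity trend, and 6 when only probe sets with a mean of at least 5 were tested or when all 4 vector arrays served as control. With Runx1 these same settings gave 2, 1 and 2 genes. Here and below, the share of all genes that passed under a changed setting was not taken. Whether such a rise or fall in count is particular to these genes was therefore not tested.

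**Figure D3:**
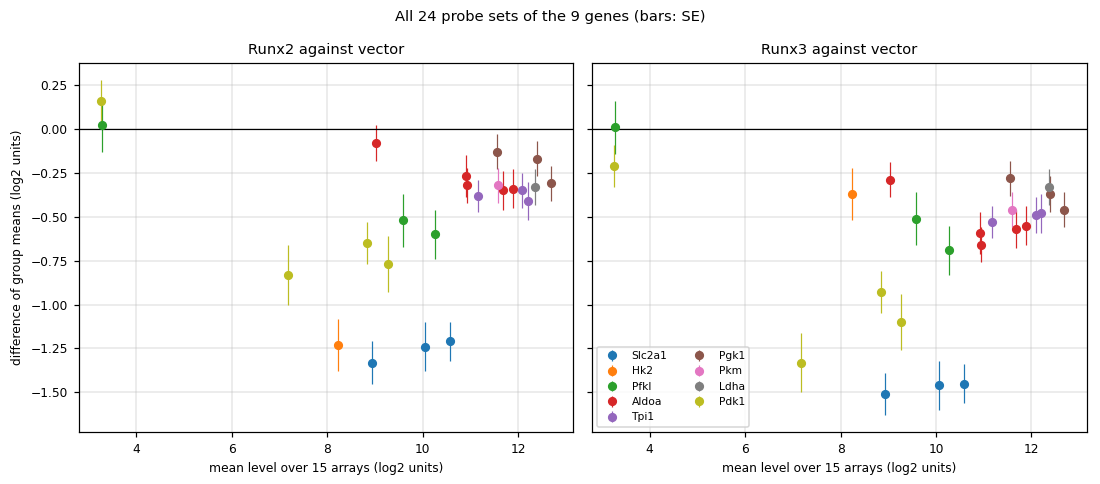
Log2 difference from vector (vertical axis, with SE bars) of all 24 probe sets against their mean level over 15 arrays (horizontal axis, log2 units), coloured by gene, with Runx2 on the left and Runx3 on the right. The 2 probe sets at mean levels of 3.26 and 3.28 sit near 0, and the probe sets of Slc2a1 and the brighter ones of Pdk1 lie lowest with Runx3.

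Human RUNX1 was read on 1 array, which was assumed to vary like the other groups. Its Slc2a1 level of 10.49 lay below both vector arrays, and under that assumption the log2 difference of −0.67 ± 0.14 (1.59-fold) had an adjusted p of 0.0152, with no replicate to check it. It was 1 of 9 genes to pass, against 3.96% of all genes. That call was lost without vector 1 (−0.73, adjusted p = 0.0533) or vector 2 (−0.62, adjusted p = 0.0802). The other 8 genes differed by −0.48 to 0.11, and 2 of 9 had an unadjusted p under 0.05 on the lower side (14.1% of all genes). The array read below both vector arrays for 6 of 9 genes, while 49.0% of all genes did so in that comparison. It read above both for the other 3, Aldoa, Pgk1 and Pkm, against 29.9% of all genes. The median of the 9 genes was −0.07 and that of all genes −0.05.

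Induction of RUNX1-ER by 4-OHT for 24 h was followed by lower levels of Slc2a1, Hk2 and Pdk1. Slc2a1 was 1.71-fold lower than in uninduced cells (log2 difference −0.78 ± 0.11, limma adjusted p = 0.00351), Hk2 1.73-fold (−0.79 ± 0.15, adjusted p = 0.0179) and Pdk1 1.68-fold (−0.75 ± 0.16, adjusted p = 0.0433). These 3 of 9 genes compare with 0.610% of all genes that passed as lower. Pfkl read 10.16 and 9.71 induced against 10.42 and 10.65 uninduced (−0.60, adjusted p = 0.0628). The other 5 genes differed by −0.26 to −0.29 (adjusted p = 0.357 to 0.398), all with both induced arrays below both uninduced ones.

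For 9 of 9 genes the induced arrays did not overlap with the uninduced ones (17.2% of all genes lay lower in this way), and 9 of 9 had an unadjusted p under 0.05 on the lower side (5.04%). Of the 24 probe sets 6 passed (0.402% of all probe sets). The median over the 9 genes was −0.29, against 0.02 over all genes. The 2 induced arrays differed from each other, since induced 2 read below induced 1 in 7 of the 9 genes, all but Slc2a1 and Hk2. The count of 3 fell to 0 without uninduced 2 (Slc2a1 −0.62, adjusted p = 0.0523; Hk2 −0.52, adjusted p = 0.167; Pdk1 −0.92, adjusted p = 0.0605), was at most 2 without any other array, was 0 in a fit of these 4 arrays alone, and was 9 with an intensity trend in the variance. Slc2a1 was also lost without induced 1 (−0.74, adjusted p = 0.0553), Hk2 without either induced array (−0.77 and −0.80, adjusted p = 0.155 and 0.136), and Pdk1 without uninduced 1 (−0.58, adjusted p = 0.182) or induced 2 (−0.49, adjusted p = 0.400).

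In vector cells 4-OHT itself gave differences of −0.07 to 0.16, and 0 of 9 genes passed limma's test, as did 0 of all genes (0%). At an unadjusted p under 0.05 the count was also 0 of 9, while 6.34% of all genes reached it. Slc2a1 read 0.16 higher with 4-OHT, with a 95% interval of −0.08 to 0.41. The uninduced line differed from vector by −0.32 to 0.40, with 0 of 9 genes past the threshold (0.0165% of all genes passed) and 1 of 9, Hk2, at an unadjusted p under 0.05 (7.60% of all genes). Hk2 was the gene with the difference of 0.40 (adjusted p = 0.658), and without uninduced 1 it passed as higher (0.67, adjusted p = 0.0479).

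Set against the effect of 4-OHT in vector cells, Slc2a1 after induction was lower by a log2 difference of −0.94 ± 0.16 (interaction, adjusted p = 0.0210). It was the 1 gene of 9 to pass, against 0.0989% of all genes as lower, and 6 of 9 had an unadjusted p under 0.05 on the lower side (3.11%). Hk2 had −0.88 ± 0.21 (adjusted p = 0.129), Pdk1 −0.68 (adjusted p = 0.375), Pfkl −0.58 (adjusted p = 0.383) and the other 5 genes −0.34 to −0.24. The Slc2a1 call was lost without any 1 array of these 4 groups except uninduced 1 (−0.99 to −0.79, adjusted p = 0.0632 to 0.144). Compared with vector cells that also had 4-OHT, induced cells had less Slc2a1 (−1.07 ± 0.11, adjusted p = 2.18e-04), Pdk1 (−0.99 ± 0.16, adjusted p = 0.00435) and Pfkl (−0.63 ± 0.14, adjusted p = 0.0312), 3 of 9 genes against 0.874% of all. Slc2a1 passed under each of the 11 alternatives run. Without induced 2, Pdk1 (−0.73, adjusted p = 0.0568) and Pfkl (−0.41, adjusted p = 0.268) were lost, and Pfkl was lost without vector 4-OHT 2 too (−0.53, adjusted p = 0.202).

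The lines were then compared with each other. Each family member is 1 line, so the gene introduced, its dose and the line cannot be told apart. Runx3 cells were lower than Runx1 cells in 6 of 9 genes (3.41% of all genes were lower), Slc2a1 by −0.94 ± 0.11 (adjusted p = 2.59e-04), Pdk1 by −0.91 ± 0.16 (adjusted p = 0.00445), Aldoa by −0.49 (adjusted p = 0.0186), Pgk1 by −0.48 (adjusted p = 0.0144), Tpi1 by −0.46 (adjusted p = 0.0291) and Pkm by −0.44 (adjusted p = 0.0203). An unadjusted p under 0.05 on the lower side was reached by 8 of 9, all but Hk2, against 9.36% of all genes. Hk2 differed by 0.16, with a 95% interval of −0.15 to 0.47. The count of 6 was 1 without Runx1 1 or Runx3 2, and at most 3 without another array; Slc2a1 passed each time, Pdk1 was lost without Runx1 1 (−0.78, adjusted p = 0.0688) or Runx3 2 (−0.84, adjusted p = 0.0592), and for the 4 enzymes the adjusted p rose to between 0.0545 and 0.235 where the call was lost.

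Runx2 cells were lower than Runx1 cells in Slc2a1 (−0.70 ± 0.11, adjusted p = 0.0107) and Hk2 (−0.70 ± 0.15, adjusted p = 0.0450), 2 of 9 genes against 0.775% of all. All 9 had an unadjusted p under 0.05 on the lower side (6.60% of all genes). Slc2a1 was lost without Runx1 1, Runx1 2 or Runx2 2 (−0.75 to −0.60, adjusted p = 0.0604 to 0.124), and Hk2 without any 1 of the 4 arrays (−0.80 to −0.59, adjusted p = 0.111 to 0.295). Between Runx3 and Runx2 the genes other than Hk2 differed by −0.34 to 0.00. The interval for Slc2a1 was −0.49 to 0.00, for Pdk1 −0.68 to 0.00 and for Ldha −0.22 to 0.23, so differences of those sizes are not excluded.

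Across all 15 arrays the levels of the 9 genes varied together. The correlation between 2 genes, a description over arrays that share groups and normalization, was 0.41 to 0.98 over 36 pairs, with a median of 0.90, and Hk2 took part in the lowest. Each gene was centred on its own mean and the 9 averaged: the result was 0.24 and 0.30 on the vector arrays, 0.27 and 0.33 with 4-OHT, 0.20 and 0.29 in uninduced and −0.12 and −0.34 in induced cells. It was 0.08 with human RUNX1, 0.13 and 0.07 with Runx1, −0.27 and −0.42 with Runx2 and −0.36 and −0.41 with Runx3. The 6 arrays of vector, vector 4-OHT and uninduced cells lay above 0, as did those of Runx1 and human RUNX1, and the 6 arrays of induced, Runx2 and Runx3 cells lay below.

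Among 4228 other genes with a mean of at least 7 log2 units, 23 (0.544%) followed that average at r over 0.9 across the 15 arrays, and the median r was −0.05. The 5 closest were Fam162a (r = 0.985), Higd1a (0.982), Ugdh (0.969), Plod1 (0.965) and Pgam1 (0.960). Fam162a and Higd1a encode mitochondrial proteins, Ugdh makes UDP-glucuronate, Plod1 hydroxylates collagen lysines, and Pgam1 is the phosphoglycerate mutase that follows Pgk1 in glycolysis. Higd1a differed from vector by −1.29 with Runx3 and Fam162a by −1.06, as a description of genes picked for their likeness. Slc2a1 was most like Arhgap29 (0.968), Fdx1 (0.966) and Ero1a (0.963), Hk2 most like Sap30 (0.885), and Pdk1 most like Tmem45a (0.958) and P4ha1 (0.946). Pgam1 was the gene most like Tpi1 (0.985) and Ldha (0.984).

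The other genes of glycolysis did not all follow. Of 21 measured further isoforms, enzymes and transporters, 4 were lower with Runx3, 1 with Runx2 and 1 with Runx1 by limma, against 4.57%, 1.35% and 0.610% of all genes; their median difference was −0.09, −0.03 and −0.06. Eno2, the neuronal enolase isoform, differed most, at 7.63 with vector against 5.67 with Runx3 (−1.96 ± 0.20, adjusted p = 2.98e-05), 5.73 with Runx2 (−1.91, adjusted p = 1.59e-04) and 6.73 with Runx1 (−0.90, adjusted p = 0.0487). It was lower after induction as well (−0.99, adjusted p = 0.0278), the 1 gene of the 21 to pass there (0.610% of all genes). With Runx3, Ldhb (−0.68, adjusted p = 0.00152), the platelet-type phosphofructokinase Pfkp (−0.67, adjusted p = 0.0128) and Pgam1 (−0.37, adjusted p = 0.0367) were lower too. Hk1, the housekeeping hexokinase, differed by −0.18 with Runx3 (adjusted p = 0.528), −0.40 with human RUNX1 (adjusted p = 0.113) and −0.38 on induction (adjusted p = 0.171), and it passed as lower in induced cells against vector with 4-OHT (−0.56, adjusted p = 0.0163). The muscle-type phosphofructokinase Pfkm differed by −0.05 with Runx3 (adjusted p = 0.930).

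At the branch from pyruvate into mitochondria, of 11 measured genes of pyruvate dehydrogenase and its regulators 3 were lower and 1 higher with Runx3 (3.26% of all genes were higher), 3 lower with Runx2 and 1 lower with Runx1 and with induction. Over all genes the shares that were lower are 4.57% with Runx3, 1.35% with Runx2, 0.610% with Runx1 and 0.610% on induction, and the same shares stand behind the counts of the lists that follow. The kinase gene Pdk4 was lower in all of them, by −1.47 with Runx3 (adjusted p = 2.31e-06), −1.18 with Runx2 (adjusted p = 6.89e-05), −0.59 with Runx1 (adjusted p = 0.0207) and −0.77 on induction (adjusted p = 0.00330). Pdk3, a further kinase of this enzyme, and the phosphatase gene Pdp1, which opposes them, were lower with Runx2 and with Runx3, by −0.54 and −0.73 in each. Pdha1, the catalytic subunit that these enzymes act on, was higher with Runx3 (0.37, adjusted p = 0.0179). Human RUNX1, on its 1 array, differed from vector by −1.07 in Pdk4, −0.74 in Pdp1, −0.71 in Pdp2 and −0.57 in Pdk3. The median of the 11 genes there was −0.15, against −0.05 for all genes.

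None of 15 measured genes of the tricarboxylic acid cycle passed limma's test in any of the 12 comparisons, and at an unadjusted p under 0.05 the count in either direction was 4 with Runx3 (19.2% of all genes), 0 with Runx2 (12.1%), 1 with Runx1 (9.38%) and 0 on induction (11.0%). None of 6 genes of the pentose phosphate pathway passed in the 3 mouse lines or on induction, with 3, 2, 1 and 0 at an unadjusted p under 0.05 in the same order. On the 1 human RUNX1 array 4 of the 6 had an unadjusted p under 0.05 (20.7% of all genes), and Tkt, transketolase, passed as lower (−0.40, adjusted p = 0.0489). Their medians lay at 0.05 and −0.19 with Runx3. In gluconeogenesis and glycogen metabolism 3 of 15 were lower with Runx3, 3 with Runx2 and 1 on induction. The glycogen synthase gene Gys1 differed by −0.95 and −0.82, and Pgm1, which interconverts glucose phosphates, by −0.47 and −0.61. Gys1 differed by −0.80 on the 1 human RUNX1 array, where the median of the 15 genes was −0.09, against −0.05 for all genes. Gbe1, the glycogen branching enzyme, differed by −0.81 with Runx2 (adjusted p = 0.00716) and −0.69 on induction (adjusted p = 0.0272), and by −0.33 with Runx3 (adjusted p = 0.257).

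Of 9 HIF subunits and oxygen sensors, 3 were lower with Runx3, 2 with Runx2, 1 with Runx1 and 1 on induction. Egln3, a prolyl hydroxylase that marks HIF for destruction and is itself a HIF target, went from 7.35 with vector to 4.77 with Runx3 (−2.58 ± 0.17, adjusted p = 8.74e-07), 6.30 with Runx2 (−1.05, adjusted p = 0.00696) and 5.94 with Runx1 (−1.41, adjusted p = 8.61e-04). Its relative Egln1 was lower with Runx3 (−1.03), Runx2 (−0.98) and induction (−0.87, adjusted p = 8.59e-04). Hif1a, the oxygen-regulated subunit, differed by −0.28 with Runx3 (adjusted p = 0.155), −0.10 with Runx2 (adjusted p = 0.846) and −0.23 on induction (adjusted p = 0.493), and its partner Arnt by −0.43 with Runx3 (adjusted p = 0.0444). HIF is set mainly by the stability of its protein, which the arrays did not measure. Of 9 activators and repressors of glycolysis, 1 was higher and 1 lower with Runx3, 2 were lower with Runx2 and 2 with Runx1. Myc was higher with Runx3 (0.85, limma adjusted p = 5.12e-04) and in induced cells against vector with 4-OHT (0.55, adjusted p = 0.0277). It differed by 0.53 with Runx1 (adjusted p = 0.0573) and by 0.47 with Runx2 (adjusted p = 0.0856). Mxi1, an antagonist of Myc, was lower with Runx3 (−0.65), Runx2 (−0.75) and Runx1 (−0.52). Mycn, a relative of Myc, was lower with Runx2 (−0.70, adjusted p = 0.00119) and Runx1 (−0.50, adjusted p = 0.0198) and differed by −0.06 with Runx3 (adjusted p = 0.886). Epithelial markers stood highest in the Runx3 cells, as given above, and their part in these results was not tested.

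**Figure D4:**
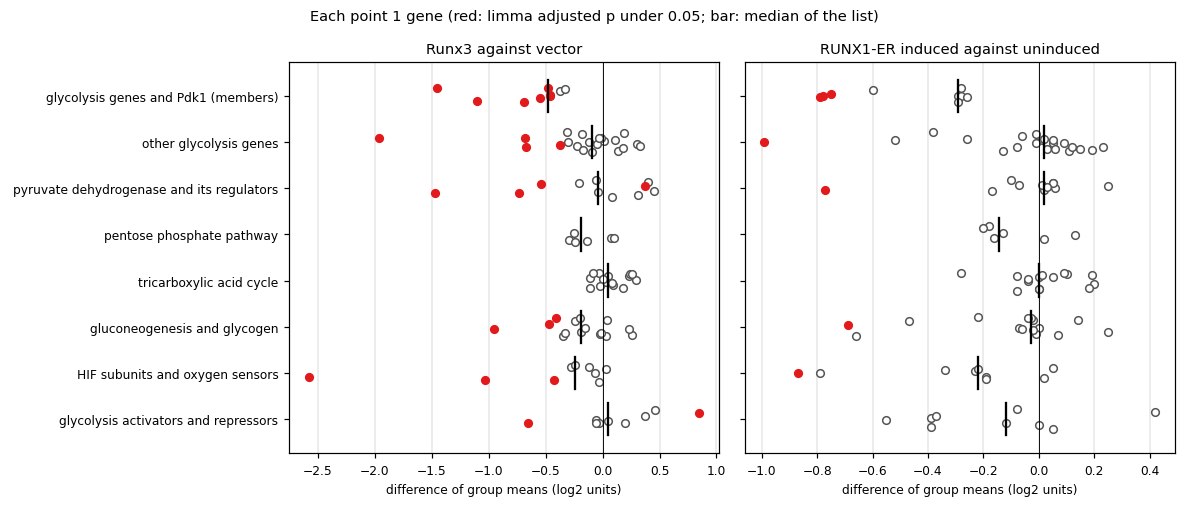
Log2 difference of each gene (points) with Runx3 against vector on the left and with RUNX1-ER induced against uninduced on the right, for the 9 genes and 7 lists of related genes; red points passed an adjusted p of 0.05 and the bar is the median of a list. The medians of the 9 genes are −0.48 and −0.29, while those of the tricarboxylic acid cycle are 0.05 and 0.00.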

How the data were processed

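The values are the authors' deposited RMA levels on a log2 scale for 15 arrays; per the labels' protocols, scans were read with GCOS and normalized with Robust Multichip Average in the Bioconductor module affy, and the sources used here do not give versions or probe-set definitions. RMA shrinks differences of dim probe sets. All 15 columns were matched to samples by accession (0 were left unmatched), and no arrays were identical. Of 45101 probe sets, 64 manufacturer controls were left out; 34945 of the rest had 1 symbol, 932 several and 9160 none.

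Tests used limma 3.58.1 in R 4.3.3 (lmFit and eBayes, 1 coefficient per group, all 15 arrays, 45037 probe sets across the whole array), with two-sided p-values adjusted by Benjamini-Hochberg within each of 12 comparisons and a threshold of 0.05. Alternatives were another variance model, filter, control group, probe-set rule, array centring and set of arrays, a replicate block, and leaving out each array. The steps were tested on simulated data. Members and lists were chosen with earlier results of these data known. All probe sets of the members were reported. From lists, the plan was to name up to 4 genes past the threshold with the largest change. It was not kept in full, since Pdha1 and Pgam1 were named with smaller changes and Txnip, which passed, was not named. Hk1, Pfkm, Hif1a and other genes given with values that did not pass were added after the genes past the threshold were seen. Promoters came from RefSeq (GRCm38.p6).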

Additional observations from a re-analysis of the deposited data

Results flagged for a closer look

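Where 2 groups' effects were tested against each other, 10 differences passed an adjusted p of 0.05 (limma, over all probe sets), and no explanation was weighed. Slc2a1 differed by −0.94 log2 units between induction of RUNX1-ER and the effect of 4-OHT in vector cells. Between Runx2 and Runx1 lines, Slc2a1 differed by −0.70 and Hk2 by −0.70. Between Runx3 and Runx1 lines the differences were −0.94 for Slc2a1, −0.91 for Pdk1, −0.49 for Aldoa, −0.48 for Pgk1, −0.46 for Tpi1 and −0.44 for Pkm. Hk2 was 0.86 higher with Runx3 than with Runx2.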

How the results depend on the processing

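Of 1278 values of single genes under alternatives, 1132 kept their side of the threshold, 87 lost the call and 59 gained one. A change of direction was counted only where the value passed in at least 1 of the 2 fits, and 0 such values reversed. Values that passed in neither fit may have changed direction. Counts of the 9 genes moved as follows. The share of all genes that passed in the same fits was not taken, so the counts stand without it. With an intensity trend in the variance they were 2 for Runx1, 9 for Runx2, 9 for induction, 2 for induction beyond 4-OHT, 9 for induced cells against vector with 4-OHT and 8 for Runx2 against Runx1. In fits of only the groups compared they were 0 for human RUNX1, induction, induction beyond 4-OHT, Runx2 against Runx1 and Runx3 against Runx2, 1 for induced cells against vector with 4-OHT and 2 for Runx3 against Runx1. Testing only probe sets with a mean of at least 5 gave 1 for Runx1 and 6 each for Runx2 and for induced cells against vector with 4-OHT. Runx1 gave 1 against vector with 4-OHT and 2 against both vector groups, and Runx2 gave 6 against both; 1 probe set per gene, or the mean of a gene's probe sets, gave 1 for Runx1. Centring on bright probe sets gave 1 for Runx2 against Runx1. Leaving out 1 array gave 0 to 0 for Runx1, 2 to 2 for Runx2, 2 to 4 for Runx3, 0 to 0 for human RUNX1, 0 to 2 for induction, 0 to 0 for 4-OHT in vector cells, 0 to 2 for induction beyond 4-OHT, 1 to 3 for induced cells against vector with 4-OHT, 0 to 1 for uninduced cells, 0 to 1 for Runx2 against Runx1, 1 to 3 for Runx3 against Runx1 and 0 to 1 for Runx3 against Runx2. The cause of these moves was not tested, and the lists of related genes were not run under alternatives. Replicate numbers did not pair the arrays: of 21 pairs of groups, 1 had deviations that correlated over 0.1 and 1 under −0.1. A replicate block gave 1 gene for Runx2 against Runx1 (Hk2 had an adjusted p of 0.0597) and changed no other count of the 12 comparisons by over 1.5 times. Probe sets near the low end of the arrays limit what can be seen of Pfkl and Pdk1 by those 2 probe sets.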
